A study of Rattus norvegicus with 9 samples.

Results

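Interleukin-1 (IL-1) genes, Tnf, Il6 and Il10 were followed in the alveolar macrophages of male Wistar rats, cells that patrol and clear the alveoli, after intratracheal nitrogen mustard (NM) or its vehicle, phosphate-buffered saline (PBS). The members were the 8 genes Il1a, Il1b, Il18, Il1rn, Il1r2, Tnf, Il6 and Il10, of 17109 genes and unnamed transcripts in the deposited matrix, and they were chosen by name from their RefSeq transcript identifiers. Each member had 1 transcript row, so no isoforms had to be summed. NM (mechlorethamine hydrochloride, 0.125 mg/kg) alkylates DNA and links its strands. Rats weighed between 225 and 250 g on purchase. The 9 libraries formed 3 groups of 3 biological replicates, numbered 0, 1 and 2: cells collected 28 d after NM (NM day 28), cells collected 1 d after NM (NM day 1), and cells of rats given PBS. The PBS libraries are listed with day of exposure 0, and no separate PBS group stands beside each NM day. The time of collection after PBS is not stated otherwise in the labels, nor whether a library came from 1 rat or several. The values are FPKM, fragment counts divided by transcript length and by library size, as deposited.

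IL-1 alpha (Il1a) and IL-1 beta (Il1b) are the agonists of the type 1 IL-1 receptor, which pairs with an accessory protein (Il1rap) to signal through Myd88 and the Irak kinases. IL-1 beta and interleukin-18 (Il18) are made as precursors that caspase-1, an inflammasome enzyme, cleaves, while IL-1 alpha is already active as a precursor. Inhibitors of separate kinds act on the agonists: the receptor antagonist (Il1rn) occupies the receptor without triggering it, and the type 2 receptor (Il1r2) is a decoy without a signalling domain. Tumor necrosis factor (Tnf) and interleukin-6 (Il6) are cytokines that macrophages release early in injury, and interleukin-10 (Il10) restrains macrophage activation.

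The depth of each library was not given as counts, but comparing the steps between low FPKM values gave relative depths of 1.03 to 1.12 for NM day 28, 1 to 1.47 for NM day 1 and 1.42 to 2.58 for PBS, with NM day 1 replicate 0 set to 1. Of the macrophage markers, Cd68 ran from 891 to 1103 FPKM in NM day 28, from 759 to 873 FPKM in NM day 1 and from 724 to 1355 FPKM in PBS libraries. Pparg was at least 105 FPKM in each of the 9. It ran from 178 to 193 FPKM in NM day 28, from 105 to 140 FPKM in NM day 1 and from 175 to 180 FPKM in PBS libraries. Every NM day 1 library was thus below every PBS library for Pparg. Marco and Adgre1 were listed at 0 in all 9 libraries. In all, 9885 genes reached 1 FPKM in 3 or more libraries, among them 6 of the 8 members. Il6 and Il10 did not reach it and were not tested. The 6 others were above 1 FPKM in each of the 9 libraries. Differences were tested with limma on log2(FPKM + 1), with adjustment by Benjamini-Hochberg over all 9885 genes, and a gene is called higher or lower where the adjusted p is under 0.05. Fold changes are on that log2 scale, which understates the change of genes with low FPKM.

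Promoter sequences, 250 bases before to 50 after the annotated transcription start, were found in RefSeq (GRCr8) for 6 of the 8 members, all but Il1r2 and Il10. Those of the agonists Il1b and Il1a and the antagonist Il1rn are shown, since Il1b was higher after NM on both days, Il1rn on 1 and Il1a on neither. Capitals mark matches on either strand to TATAAA, TTGCNNAA (a C/EBP-type motif) or TGANTCA (an AP-1-type motif); the kappaB consensus was searched as well, and no matches overlapped in these promoters. Il1b lies at chr3:137036532-137036831 on the minus strand, Il1a at chr3:136989968-136990267 on the minus strand and Il1rn at chr3:27520072-27520371 on the plus strand of GRCr8. The authors' own build was rn4, and no coordinate of it is used here.
Il1b: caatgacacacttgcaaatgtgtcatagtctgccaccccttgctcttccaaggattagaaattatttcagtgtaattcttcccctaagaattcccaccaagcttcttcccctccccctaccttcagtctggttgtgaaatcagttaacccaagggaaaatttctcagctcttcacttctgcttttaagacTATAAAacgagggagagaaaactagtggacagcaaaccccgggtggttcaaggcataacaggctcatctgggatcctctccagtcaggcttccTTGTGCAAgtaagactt
Il1a: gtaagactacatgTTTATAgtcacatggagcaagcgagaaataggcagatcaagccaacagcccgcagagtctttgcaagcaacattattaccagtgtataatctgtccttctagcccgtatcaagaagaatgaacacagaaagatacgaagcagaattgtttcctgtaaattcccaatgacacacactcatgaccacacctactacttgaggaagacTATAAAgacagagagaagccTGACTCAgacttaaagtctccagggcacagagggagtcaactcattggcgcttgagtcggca
Il1rn: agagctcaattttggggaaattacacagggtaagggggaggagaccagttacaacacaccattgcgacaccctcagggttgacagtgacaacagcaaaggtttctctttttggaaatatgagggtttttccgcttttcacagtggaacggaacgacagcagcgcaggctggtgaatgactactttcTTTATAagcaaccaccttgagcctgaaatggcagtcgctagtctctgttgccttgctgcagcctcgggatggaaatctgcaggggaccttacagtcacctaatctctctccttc
TATAAA began at base -60 of Il1b and base -32 of Il1a, counted back from the start, and was found in 14.2% of 33469 promoters. Its matches on the strand opposite to the printed one began at base -237 of Il1a and base -64 of Il1rn. The TTGCNNAA match of Il1b, also on the opposite strand, lay after the start, at bases 34 to 41. TGANTCA began at base -12 of Il1a. TTGCNNAA was in 10.6% and TGANTCA in 7.33% of the promoters. The kappaB consensus, in 7.51% of promoters, had 1 match among the 6 members, at base -68 of Il6.

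Il1b, the secreted agonist, was about 10 times as high after NM as after PBS. Its FPKM was 169, 40.4 and 136 in the 3 NM day 28 libraries, 189.8, 129 and 78.9 in the NM day 1 libraries, and 15.3, 12.2 and 9.57 in the PBS libraries (replicates 0, 1 and 2 in each). Every NM library was above every PBS library, and the NM libraries differed widely among themselves, with NM day 28 replicate 1 the lowest of the 6. The means were 115 ± 66.6 FPKM in NM day 28, 133 ± 55.5 FPKM in NM day 1 and 12.4 ± 2.86 FPKM in PBS (SD, n = 3). Il1b was called higher at day 28 (log2 fold change 2.91 ± 0.45 SE, limma adjusted p = 0.00302) and at day 1 (3.26 ± 0.45 SE, limma adjusted p = 0.000903). These calls held in each of the 18 alternative fits of either comparison, and without NM day 28 replicate 1 the day 28 value was 3.53.

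Il1a, the agonist kept in or on the cell, did not follow Il1b. It had 28.4, 27.7 and 23.3 FPKM in NM day 28, 32.3, 19.4 and 14 FPKM in NM day 1, and 35.3, 16.2 and 12.6 FPKM in PBS libraries. All 3 groups overlapped, and the highest single value was in a PBS library. The log2 fold change was 0.42 at day 28 (95% interval -0.33 to 1.18, limma adjusted p = 0.502) and 0.09 at day 1 (-0.67 to 0.84, limma adjusted p = 0.906). The day 1 value was below 0 without NM day 1 replicate 0 (-0.22), PBS replicate 1 (-0.04) or PBS replicate 2 (-0.20). In each PBS library Il1a was above Il1b, and in each of the 6 NM libraries Il1b was above Il1a: the ratio of Il1b to Il1a ran from 1.46 to 5.93 in NM day 28, from 5.63 to 6.68 in NM day 1 and from 0.433 to 0.759 in PBS.

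Il18 was the member with the highest level in every library, and none of its tests passed. It had 612, 737 and 513 FPKM in NM day 28, 780.1, 680.0 and 815 FPKM in NM day 1, and 836, 722 and 453 FPKM in PBS libraries. The highest and the lowest of the 9 values were both PBS libraries. Its mean ranked 163 of 17109 in NM day 28, 147 in NM day 1 and 191 in PBS. The log2 fold change was -0.08 at day 28 (95% interval -0.59 to 0.43, limma adjusted p = 0.88) and 0.22 at day 1 (-0.29 to 0.73, limma adjusted p = 0.603). The day 28 value was above 0 after quantile normalisation (0.27) and without NM day 28 replicate 2 (0.05) or PBS replicate 0 (0.10), and the day 1 value below 0 without PBS replicate 2 (-0.04).

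**Figure D1:**
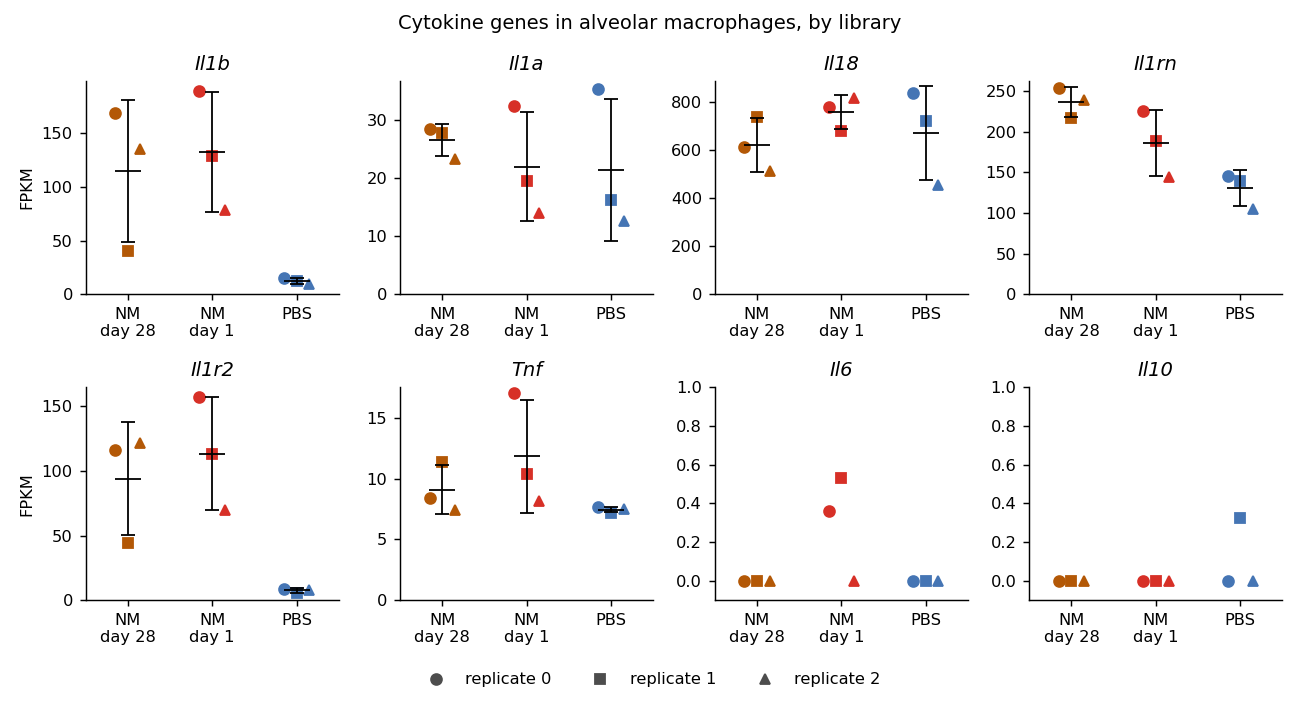
FPKM of the 8 genes in each library (points, shaped by replicate) for NM day 28, NM day 1 and PBS; bars are the mean ± SD of 3 libraries, left out for Il6 and Il10, which were mostly at 0. Il1b and Il1r2 lie far above PBS in every NM library, while Il1a and Il18 overlap in all groups.

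The decoy receptor Il1r2 had the largest fold changes of the members. It had 116, 44.0 and 122 FPKM in NM day 28, 157, 113 and 69.9 FPKM in NM day 1, and 8.94, 5.63 and 8.30 FPKM in PBS libraries. No NM library came near the PBS range, and NM day 28 replicate 1 was again the lowest NM library. It was called higher at day 28 (log2 fold change 3.35 ± 0.37 SE, limma adjusted p = 0.000401) and at day 1 (3.67 ± 0.37 SE, limma adjusted p = 9.73e-05). The ratio of mean FPKM was 12.3 at day 28 and 14.9 at day 1, and both calls held in each of the 18 alternative fits.

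The receptor antagonist Il1rn was already abundant in PBS cells and changed less. It had 253, 217 and 239 FPKM in NM day 28, 225, 189 and 145 FPKM in NM day 1, and 146, 139.7 and 105 FPKM in PBS libraries. The NM day 28 libraries were all above the PBS libraries, whereas 1 NM day 1 library lay within the PBS range. Il1rn was called higher at day 28 (ratio of mean FPKM 1.81, log2 fold change 0.87 ± 0.19 SE, limma adjusted p = 0.0183). That call ended without NM day 28 replicate 0, NM day 28 replicate 2 or PBS replicate 1 (adjusted p = 0.0642, 0.0605 and 0.0546). At day 1 it did not pass (0.50 ± 0.19 SE, limma adjusted p = 0.119), but did after quantile normalisation (adjusted p = 0.0359).

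Of the 6 members tested, 3 were higher and 0 lower at day 28, where 3.07% of all 9885 genes were called higher and 3.98% lower. At day 1 the members held 2 higher and 0 lower, beside 5.28% of genes higher and 4.58% lower. These 2 comparisons share the PBS libraries. Between NM day 28 and NM day 1 limma called 0 members, with 0 at an unadjusted p under 0.05, beside 4.75% of all genes called higher and 6.88% lower. The differences between the days, NM day 28 minus NM day 1, had 95% intervals of -1.33 to 0.63 for Il1b, -1.14 to 0.48 for Il1r2 and -0.05 to 0.78 for Il1rn on the log2 scale. Without NM day 28 replicate 1 the difference turned positive for Il1b (0.28 instead of -0.35) and Il1r2 (0.15 instead of -0.33).

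**Figure D2:**
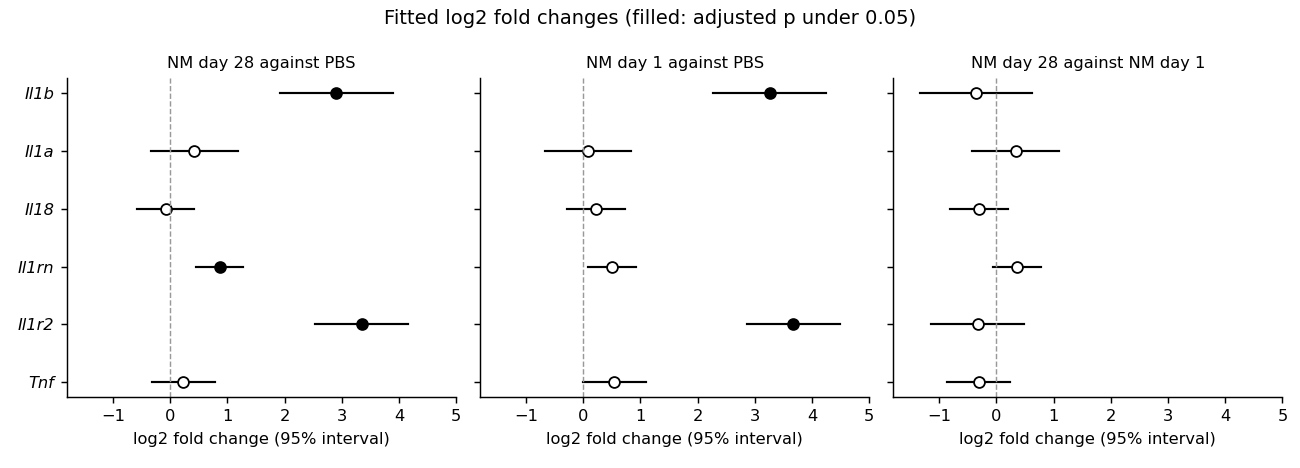
Log2 fold changes of the 6 members tested (points, filled where the limma adjusted p is under 0.05) with their 95% intervals, for NM day 28 against PBS, NM day 1 against PBS and NM day 28 against NM day 1. Il1b and Il1r2 stand near 3 against PBS on both days, Il1rn passes at day 28, and no member passes between the days.

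Set against Il1b, the antagonist Il1rn had a smaller margin after NM, while the decoy Il1r2 did not. The ratio of Il1rn to Il1b was 1.5, 5.36 and 1.76 in NM day 28, 1.19, 1.46 and 1.83 in NM day 1, and 9.54, 11.4 and 11.0 in PBS libraries. Every NM library was below every PBS library, and Il1rn stayed above Il1b in all 9. NM day 28 replicate 1, the NM library with the least Il1b, had the NM ratio closest to PBS. The ratio of Il1r2 to Il1b was 0.690, 1.09 and 0.897 in NM day 28, 0.827, 0.874 and 0.886 in NM day 1, and 0.585, 0.461 and 0.867 in PBS libraries, and its groups overlapped. The decoy and the agonist thus differed by similar factors between groups, whereas the antagonist did not. With both inhibitors over both agonists, the ratio ran from 1.87 to 3.83 in NM day 28, from 1.72 to 2.31 in NM day 1 and from 3.06 to 5.12 in PBS, where NM day 28 replicate 1 lay inside the PBS range. The ratio of Il1rn to Il1a overlapped between all groups, from 7.82 to 10.3 in NM day 28, 6.98 to 10.3 in NM day 1 and 4.13 to 8.65 in PBS. No test was made on these ratios, which are levels of RNA and not of protein.

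**Figure D3:**
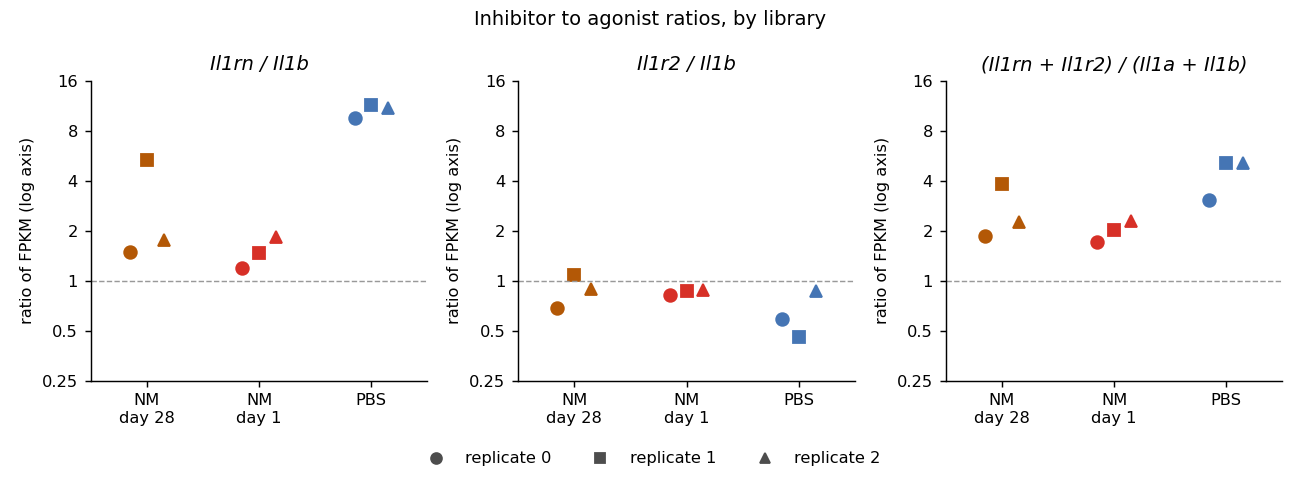
Ratios of FPKM in each library on a log axis: Il1rn to Il1b, Il1r2 to Il1b, and both inhibitors to both agonists, for NM day 28, NM day 1 and PBS. The Il1rn to Il1b ratio runs from 1.19 to 5.36 in NM libraries and from 9.54 to 11.4 in PBS libraries, while the Il1r2 to Il1b ratios overlap.

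Tnf was low in all groups. It had 8.41, 11.3 and 7.46 FPKM in NM day 28, 17.0, 10.3 and 8.12 FPKM in NM day 1, and 7.64, 7.21 and 7.52 FPKM in PBS libraries. The NM day 1 libraries were all above the PBS libraries and spread over a wider range, with replicate 0 the highest. Neither day passed: the log2 fold change was 0.23 at day 28 (95% interval -0.32 to 0.78, limma adjusted p = 0.626) and 0.54 at day 1 (-0.01 to 1.09, limma adjusted p = 0.204). At day 1 the adjusted p ran from 0.111 to 0.626 over the alternatives.

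Il6 was listed at 0 in every NM day 28 and PBS library and in NM day 1 replicate 2. NM day 1 replicates 0 and 1 had 0.361 and 0.531 FPKM. Multiplied by relative depth, the value of replicate 1 was 2.00 times that of replicate 0. Il10 was above 0 in 1 library, PBS replicate 1, at 0.327 FPKM, and was listed at 0 in the other 8. At these levels no difference between groups was detectable for either gene.

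Within each group the order of levels per length put Il18 first and Il1rn second, without overlap between these neighbours. In NM day 28 and NM day 1 Il1b and Il1r2 came next, and their ranges overlapped, followed by Il1a and Tnf. In NM day 1 the ranges of Il1rn and Il1b and of Il1a and Tnf overlapped too, although the gene named first was higher in 3 of 3 libraries. In PBS the order was Il1a, Il1b, Il1r2 and Tnf, with overlapping ranges for Il1a and Il1b and for Il1r2 and Tnf. Tnf was the lowest of the 6 tested members by mean FPKM in each group.

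Among tested genes with a symbol and a mean of at least 5 FPKM in 1 group, the gene whose log2(FPKM + 1) followed Il1b most closely over the 9 libraries was Il1r2 (Pearson r = 0.985), followed by Tlr1, a receptor for bacterial lipopeptides (0.985). For Il1r2 the closest were Pla2g7, the platelet-activating factor acetylhydrolase (0.994), and Csf1, a macrophage growth factor (0.986). For Il1rn they were Txnrd1, a thioredoxin reductase, and Uqcrc2, a subunit of respiratory complex III (0.972 and 0.963). For Il1a they were the chemokine Ccl9 and Fam241b (0.942 and 0.914), for Il18 Svbp and Ssr1 (0.916 and 0.908), and for Tnf Shld2 and the ubiquitin ligase Itch (0.935 and 0.899, but 0.608 for Itch without NM day 1 replicate 0). These values are descriptive: all points share the step between PBS and NM, and the pairs were picked for their likeness.

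Some markers of other myeloid cells were higher beside Il1b and Il1r2, and others were not. In bulk RNA more cells of a type and more RNA per cell cannot be told apart. The neutrophil markers summed to between 573 and 1068 FPKM in NM day 28, between 717 and 1036 FPKM in NM day 1 and between 291 and 457 FPKM in PBS. Of 9 tested, 4 were higher at day 28 and 5 higher and 1 lower at day 1. Cxcr2, counted as higher on both days, was under 1 FPKM in every PBS library and passed the filter through NM libraries alone. Over all genes, 3.07% were called higher and 3.98% lower at day 28, and 5.28% higher and 4.58% lower at day 1. S100a9, a calprotectin subunit, had 319.7, 78.3 and 346 FPKM in NM day 28, 416, 299 and 161 FPKM in NM day 1, and 1.88, 5.17 and 5.41 FPKM in PBS libraries, and NM day 28 replicate 1 was the lowest NM library here too. Cxcr1, a chemokine receptor, made up most of the PBS sum and ran another way: it had 344, 361 and 343 FPKM in NM day 28, 129, 171 and 185 FPKM in NM day 1, and 373, 274 and 218 FPKM in PBS libraries, and was the marker called lower at day 1 (log2 fold change -0.81, limma adjusted p = 0.0281). The granule genes Camp and Ngp did not pass on either day, with lower means after NM: Camp averaged 31.6 FPKM in NM day 28, 37.9 FPKM in NM day 1 and 49.9 FPKM in PBS, and Ngp 1.05, 1.40 and 2.06 FPKM. The granule genes Elane, Ltf and Mmp8 were under 1 FPKM in each of the 9 libraries, and the PBS libraries all listed Retnlg at 0. Itgam, an integrin of monocytes and neutrophils, had 17.0, 11.9 and 20.9 FPKM in NM day 28, 33.4, 31.9 and 18.1 FPKM in NM day 1, and 1.05, 1.31 and 2.53 FPKM in PBS libraries. Plac8, a gene of recruited monocytes, had 0.515, 3.73 and 0 FPKM in NM day 28, 42.1, 48.7 and 64.4 FPKM in NM day 1, and 1.73, 3.29 and 1.57 FPKM in PBS libraries. Of the monocyte and recruited macrophage markers, Itgam and Ly86 were called higher on both days. Plac8 and Vcan were called higher at day 1 and, in the direct test, lower at day 28 than at day 1. Ccr2 and Ly6c had the same calls as Plac8. Ccr2 reached 1 FPKM in the NM day 1 libraries alone, and Ly6c had 1.16, 0 and 0 FPKM in NM day 28. Both were tested only through the group where they are high, and nothing is read from their calls. The sum of the list, most of it the lysozyme gene Lyz2, did not follow Itgam, Ly86, Plac8 and Vcan. It ran from 11237 to 14141 FPKM in NM day 28, from 7313 to 11714 FPKM in NM day 1 and from 11469 to 22951 FPKM in PBS. Ccr2 and Ly6c were listed at 0 in every PBS library. Alveolar macrophage markers summed to between 2495 and 2815 FPKM in NM day 28, between 2205 and 2520 FPKM in NM day 1 and between 2397 and 4664 FPKM in PBS. Of 8 tested, 1 was higher (Car4) and 2 lower on each day, Cidec and Mrc1 at day 28 and Cidec and Pparg at day 1. Cidec averaged 17.1 FPKM in NM day 28, 23.9 FPKM in NM day 1 and 48.8 FPKM in PBS. Car4 was under 1 FPKM in every PBS library and passed the filter through NM libraries alone. Alveolar epithelial markers were higher in 10 of 14 at day 1 and in 1 of 14 at day 28, where 2 were lower, and T and natural killer cell markers in 3 of 8 at day 1 and 0 of 8 at day 28. Their sums at day 28, at day 1 and in PBS ran from 279.7 to 386, from 1036 to 3083 and from 233 to 386 FPKM for the epithelium, and from 33.6 to 46.1, from 69.1 to 77.1 and from 26.2 to 37.4 FPKM for the lymphocytes. Dendritic cell markers were higher in 0 and lower in 1 of 5 at day 28 and higher in 2 of 5 at day 1, with sums of 28.5 to 54.1 FPKM in NM day 28, 50.1 to 76.8 FPKM in NM day 1 and 59.4 to 82.6 FPKM in PBS. Of the markers called higher at day 1, Retnlg, Cdh1, Slc34a2, Lamp3, Ccr7 and Zbtb46 would also not have passed the filter without the NM day 1 libraries. Calls of marker genes were not compared across the alternative fits, so how far they hold is not known. The part of any of these cell types in the Il1b and Il1r2 values was not tested.

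**Figure D4:**
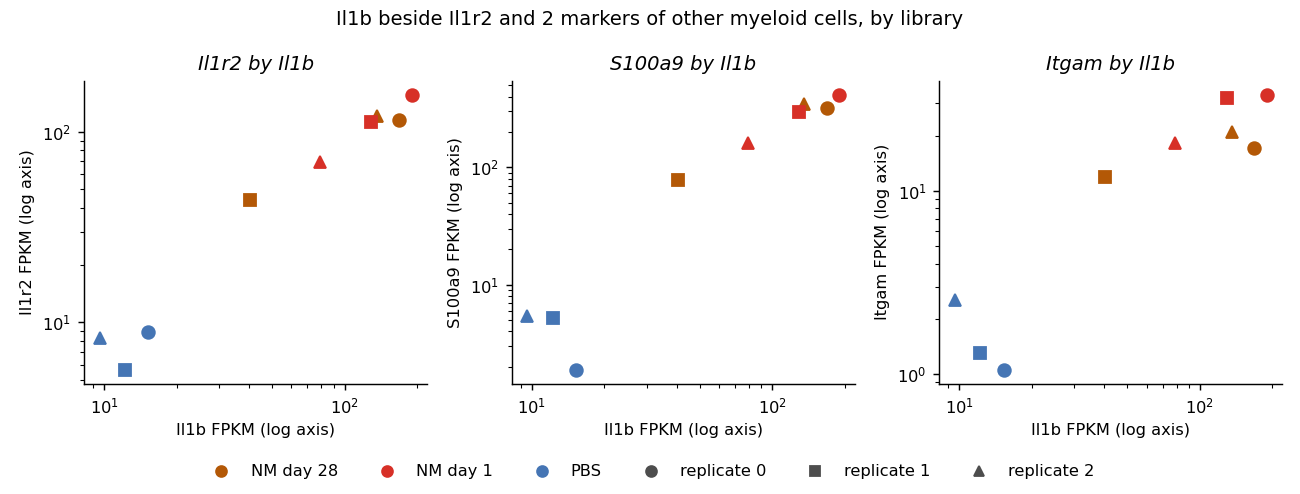
Il1r2, S100a9 (a neutrophil marker) and Itgam (a monocyte and neutrophil integrin) against Il1b, 1 point per library, all in FPKM on log axes, with the pairs picked after their values were seen. The PBS libraries lie apart at the lower left, and NM day 28 replicate 1 lies lowest among the NM libraries. Of the neutrophil markers not shown, Cxcr1 was called lower at day 1, and Camp and Ngp had lower means after NM.

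The rest of the pathway was read from 7 lists with 89 genes, of which 70 were tested. At day 28, 6 were higher and 1 lower, 10% of those tested, beside 7.04% of all genes called. At day 1, 7 were higher and 3 lower, 14.3%, beside 9.86% of all genes. Between NM day 28 and NM day 1, 5 were higher and 8 lower, 18.6%, beside 11.6% of all genes. Split by direction, 3.07% of all genes were higher and 3.98% lower at day 28, and 5.28% higher and 4.58% lower at day 1. Between the days, 4.75% were higher and 6.88% lower, and the lists below are set beside these shares. The 7 higher at day 1 and the 8 lower between the days include Il18r1, which passed the filter through the NM day 1 libraries alone. Mefv, higher at both days, and Bcl3, higher at day 1, would not have passed the filter without NM libraries.

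Of the receptors and decoys of IL-1 and IL-18, 1 of 6 was higher at day 28, 1 of 6 at day 1, and 1 higher and 3 lower between the days (median log2 fold changes -0.33, 0.52 and -0.99, beside -0.04, -0.04 and -0.00 over all genes). Il18bp, the secreted protein that neutralises IL-18, averaged 55.6 ± 6.46 FPKM in NM day 28, 33.2 ± 3.10 FPKM in NM day 1 and 37.5 ± 1.56 FPKM in PBS (SD, n = 3). It was called higher at day 28 than in PBS (log2 fold change 0.55, limma adjusted p = 0.0475) and than at day 1 (0.73, limma adjusted p = 0.00946). The call against PBS ended without any one of NM day 28 replicates 0 and 2 or the NM day 1 and PBS replicates 0, 1 and 2 (adjusted p up to 0.161), with transcript rows tested singly (0.0533) and with the 6 libraries alone (0.0834). Il18r1, a chain of the IL-18 receptor, was listed at 0 in the 3 NM day 28 libraries and had 1.41, 2.48 and 3.16 FPKM in NM day 1 and 0.273, 0.378 and 0.495 FPKM in PBS libraries. It reached 1 FPKM in the NM day 1 libraries alone and so was tested only through the group where it is high, and nothing is read from its calls. It was called higher at day 1 than in PBS (log2 fold change 1.24, limma adjusted p = 0.0196) and lower at day 28 than at day 1 (limma adjusted p = 0.00313), the first call ending without PBS replicate 0 or 1, with a pseudocount of 0.1 or quantile-normalised values (largest adjusted p 0.0795). The IL-33 receptor Il1rl1 and the IL-36 receptor Il1rl2 were lower at day 28 than at day 1 (-1.18 and -1.08). The call of Il1rl2 ended when NM day 1 replicate 0 or 1, or either of NM day 28 replicates 0 and 2, was left out (largest adjusted p 0.0871). Il1rap averaged 4.55 ± 0.464 FPKM in NM day 28, 7.72 ± 1.23 FPKM in NM day 1 and 5.45 ± 1.62 FPKM in PBS and did not pass at either day (-0.19 and 0.46; limma adjusted p = 0.675 and 0.244). The type 1 receptor gene Il1r1 was not analysed here. Of 3 other ligands of the family tested, Il33, Il36b and Il36rn, limma called 0 in any comparison, with median log2 fold changes of -0.16 at day 28, -0.04 at day 1 and -0.12 between the days.

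Of the 12 inflammasome and processing genes tested, 1 was higher at day 28, 2 were higher and 1 lower at day 1, and 2 higher and 1 lower between the days (medians 0.08, -0.01 and -0.00). Casp1, the enzyme that matures IL-1 beta and IL-18, had 182, 216 and 186 FPKM in NM day 28, 119, 85.1 and 125 FPKM in NM day 1, and 151, 152 and 139 FPKM in PBS libraries. The 3 groups did not overlap, with NM day 28 highest and NM day 1 lowest. Casp1 was called higher at day 28 than at day 1 (log2 fold change 0.84 ± 0.17 SE, limma adjusted p = 0.00778), while neither day passed against PBS (0.40 and -0.44; limma adjusted p = 0.172 and 0.122). Casp4, the caspase that senses intracellular lipopolysaccharide, had the same direction between the days (0.77, limma adjusted p = 0.0208), but not past the threshold without NM day 1 replicate 1 or NM day 28 replicate 2 (adjusted p = 0.0907 and 0.0598). The sensor Nlrp3 and the adaptor Pycard did not pass: Nlrp3 averaged 37.2 ± 4.56 FPKM in NM day 28, 44.9 ± 3.57 FPKM in NM day 1 and 34.7 ± 10.5 FPKM in PBS, and Pycard 124 ± 24.7, 118 ± 17.4 and 120.0 ± 4.64 FPKM in the same order of groups. Their log2 fold changes against PBS were 0.13 at day 28 and 0.40 at day 1 for Nlrp3 and 0.03 and -0.04 for Pycard (limma adjusted p between 0.247 and 0.944). The sign of Pycard turned at day 1 with median-of-ratios scaling (0.0033), quantile normalisation (0.14) or without NM day 1 replicate 0 (0.05) and at day 28 without NM day 28 replicate 0 (-0.13), and that of Nlrp3 at day 28 without PBS replicate 0 (-0.07). Mefv, which encodes pyrin, was called higher at both days (1.51 at day 28 and 2.31 at day 1), with the day 28 call lost without NM day 28 replicate 2 or PBS replicate 0 or 1 (adjusted p up to 0.0736). In PBS libraries Mefv had 0.286, 0.227 and 1.26 FPKM, and it would not have passed the filter without NM libraries. Nothing is read from its calls against PBS. Casp8 was higher (0.78) and the channel Panx1 lower (-0.95) at day 1, and Txnip was lower at day 28 than at day 1 (-0.87). The Casp8 call ended without any one of NM day 1 replicates 0, 1 and 2 or PBS replicates 0 and 1, the Panx1 call without NM day 1 replicate 0 or PBS replicate 1 or with transcript rows tested singly, and the Txnip call when NM day 1 replicate 0 or 2, or either of NM day 28 replicates 0 and 2, was left out (largest adjusted p 0.277).

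Of 14 genes of IL-1 receptor signalling, such as Myd88, Irak1 to Irak4 and Traf6, limma called 0 in any of the 3 comparisons. Their median log2 fold change was 0.19 at day 28, 0.12 at day 1 and 0.05 between the days.

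Of 14 genes of TNF processing, receptors and signalling, 2 were higher and 1 lower at each day, and 1 higher and 1 lower between the days (medians -0.09, -0.30 and 0.03). Birc3, an inhibitor of TNF-induced cell death, averaged 9.45 ± 2.63 FPKM in NM day 28, 25.3 ± 8.12 FPKM in NM day 1 and 2.11 ± 0.318 FPKM in PBS (SD, n = 3). Its log2 fold change was 1.72 at day 28 (limma adjusted p = 0.00318) and 3.03 at day 1 (limma adjusted p = 2.93e-05), and it was lower at day 28 than at day 1 (-1.31; adjusted p = 0.00893, but 0.0509 without NM day 1 replicate 1). Its relative Birc2 was higher at both days (0.97 and 0.92). Tnfaip8l2, a negative regulator of inflammation, was lower at both (-0.90 and -0.91). The Tnfaip8l2 call ended at day 28 without NM day 28 replicate 1 or 2 or PBS replicate 0 or 1 or without a filter, and at day 1 without NM day 1 replicate 0 or 1 or PBS replicate 0 or 1 (adjusted p up to 0.119). Rhbdf2, a partner of the TNF-releasing protease Adam17, was higher at day 28 than at day 1 (0.57), a call that ended without any one of NM day 1 replicates 0, 1 and 2 or NM day 28 replicates 0 and 2, after quantile normalisation and with transcript rows tested singly (adjusted p up to 0.989). The TNF receptors Tnfrsf1a and Tnfrsf1b did not pass: Tnfrsf1a averaged 60.9 ± 9.20 FPKM in NM day 28, 48.7 ± 3.45 FPKM in NM day 1 and 66.8 ± 10.8 FPKM in PBS, and Tnfrsf1b 37.0 ± 5.48, 29.0 ± 10.2 and 42.2 ± 10.8 FPKM (log2 fold changes against PBS -0.13 and -0.44, and -0.17 and -0.55; limma adjusted p between 0.135 and 0.727). Without PBS replicate 2 the day 28 value of Tnfrsf1b was 0.02.

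Of 11 genes of IL-6 receptors and signalling, 2 were higher at day 28, 1 at day 1, and 1 higher and 1 lower between the days (medians 0.22, 0.16 and -0.03). Socs3, which shuts off IL-6 receptor signalling, had 42.8, 16.5 and 41.8 FPKM in NM day 28, 57.8, 68.9 and 30.8 FPKM in NM day 1, and 8.97, 9.49 and 11.8 FPKM in PBS libraries. All NM libraries were above all PBS libraries, and NM day 28 replicate 1 was the lowest of the 6. It was called higher at day 28 (log2 fold change 1.54 ± 0.35 SE, limma adjusted p = 0.0234) and day 1 (2.20 ± 0.35 SE, limma adjusted p = 0.00283). The day 28 call ended without NM day 28 replicate 0 or 2 or PBS replicate 0 or 1 or without a filter (adjusted p up to 0.0859). Lif, an IL-6 family cytokine, was higher at day 28 than in PBS (1.42, limma adjusted p = 0.00886) and than at day 1 (1.27, limma adjusted p = 0.00986), with 14.5 ± 2.97 FPKM in NM day 28, 5.52 ± 1.89 FPKM in NM day 1 and 4.78 ± 1.07 FPKM in PBS. Socs1 was lower at day 28 than at day 1 (-1.24), a call that ended with no filter, or when NM day 1 replicate 0 or 2, or either of NM day 28 replicates 0 and 2, was left out (largest adjusted p 0.113). The receptor chains Il6r and Il6st did not pass: Il6r averaged 27.3 ± 0.950 FPKM in NM day 28, 39.2 ± 4.26 FPKM in NM day 1 and 32.6 ± 3.62 FPKM in PBS, and Il6st 13.2 ± 0.554, 17.9 ± 3.13 and 18.5 ± 0.973 FPKM (log2 fold changes against PBS -0.24 and 0.26, and -0.45 and -0.05; limma adjusted p between 0.134 and 0.891). Without NM day 1 replicate 0 the day 1 value of Il6st was 0.09.

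Of 10 genes listed for IL-10 receptors and signalling, 0 were called at day 28, 1 was higher and 1 lower at day 1, and 2 lower between the days (medians -0.02, 0.09 and -0.24). Bcl3, a nuclear regulator of NF-kappaB, had 6.24, 1.33 and 6.64 FPKM in NM day 28, 19.1, 13.7 and 16 FPKM in NM day 1, and 0.457, 1.58 and 0.691 FPKM in PBS libraries. It was called higher at day 1 (log2 fold change 3.21, limma adjusted p = 0.000452) and lower at day 28 than at day 1 (-1.76, limma adjusted p = 0.0159), the second call ending without NM day 1 replicate 0 or 2 (adjusted p = 0.0704 and 0.0507). Bcl3 would not have passed the filter without NM libraries, and nothing is read from its call against PBS. The cytokine gene Tgfb1 was lower at day 1 (-0.80) and Il4r, the IL-4 receptor chain, lower at day 28 than at day 1 (-1.34). The Tgfb1 call ended without NM day 1 replicate 0 or 1 or PBS replicate 0 or 1, and the Il4r call without any one of NM day 1 replicates 0, 1 and 2 or NM day 28 replicate 0, without a filter or with transcript rows tested singly (adjusted p up to 0.138). The IL-10 receptor chain Il10ra averaged 26.8 ± 9.02 FPKM in NM day 28, 27.3 ± 4.83 FPKM in NM day 1 and 28.0 ± 12.2 FPKM in PBS and did not pass (-0.04 and 0.03; limma adjusted p = 0.952 and 0.967), with signs that turned without 1 library, to between -0.25 and 0.28 at day 28 and between -0.14 and 0.35 at day 1.

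**Figure D5:**
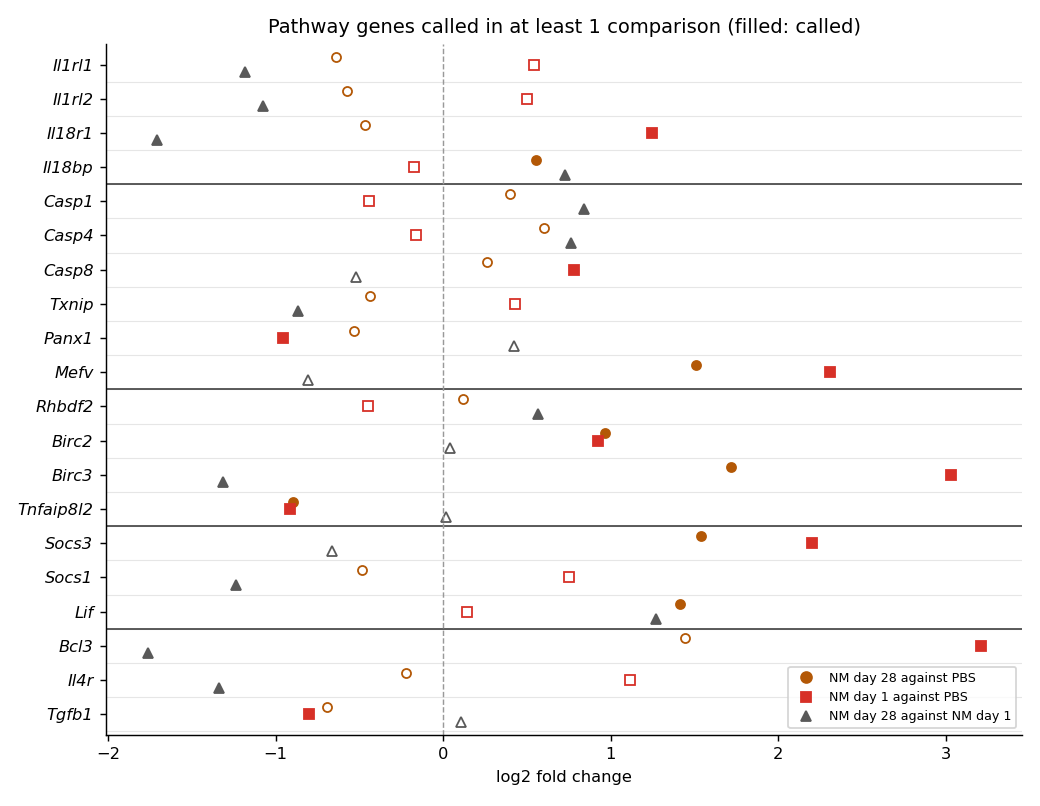
Log2 fold changes of the 20 pathway genes called in at least 1 comparison, filled where called, with heavy lines between the lists of receptors and decoys, inflammasome, TNF, IL-6 and IL-10 genes from top to bottom. Birc3, Bcl3 and Mefv lie furthest to the right for NM day 1 against PBS, at 3.03, 3.21 and 2.31. Bcl3 and Mefv would not have passed the filter without NM libraries.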

How the data were processed

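RNA of 9 libraries was measured by sequencing. The deposited values are FPKM per RefSeq transcript, and per the submitters' processing notes the tools included TopHat and Cuffdiff and the build was rn4; their versions and the strand of counting are not given in the sources used here. Read counts and depth were not given, so precision rests on the spread between libraries. Of 18197 transcript rows, 94.5% were named through RefSeq (GRCr8), and rows of 1 symbol were summed. The members, the 7 pathway lists, the 6 marker lists and the tests were chosen with earlier results of these data known. Genes at 1 FPKM or more in at least 3 libraries were tested on log2(FPKM + 1) with limma 3.58.1 (lmFit, eBayes with trend, R 4.3.3), with all 9 libraries sharing the spread and two-sided p-values adjusted by Benjamini-Hochberg over 9885 genes. The code was tested on simulated data. Named were all members, each pathway gene called in any comparison and 11 chosen pathway genes, and the 2 genes most like each tested member. Alternatives were pseudocounts of 0.1 and 5, no filter and a filter of 5 FPKM, median-of-ratios and quantile scaling, rows tested singly, a replicate block, the 6 libraries compared alone and each library left out. Alternatives for the likeness values were added after seeing the data. The labels call the replicates biological; whether they came from separate animals is not stated, so p-values measure the spread between these libraries. Tables were handled with Python 3.11.15, pandas 2.3.3 and numpy 2.4.6, and plots with matplotlib 3.10.9. The counts of called markers of monocytes and recruited macrophages against PBS are not reported here.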

Additional observations from a re-analysis of the deposited data

Results flagged for a closer look

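Of the pathway genes, 13 differed in the direct test of NM day 28 against NM day 1 (limma, adjusted over 9885 genes). With no separate PBS group for each NM day, an effect of NM cannot be told apart from other differences between the days. Higher at day 28 were Lif (log2 fold change 1.27), Casp1 (0.84), Casp4 (0.77), Il18bp (0.73) and Rhbdf2 (0.57). Lower at day 28 were Bcl3 (-1.76), Il18r1 (-1.71), Il4r (-1.34), Birc3 (-1.31), Socs1 (-1.24), Il1rl1 (-1.18), Il1rl2 (-1.08) and Txnip (-0.87). Il18r1 passed the filter through the 3 NM day 1 libraries alone and was listed at 0 in all 3 NM day 28 libraries, so its value depends on the pseudocount and its place among the 13 is not read as a result. The 13 were 18.6% of the pathway genes tested, beside 11.6% of all genes called. Cell type markers moved in the same comparison: 12 of 14 alveolar epithelial, 4 of 11 monocyte and recruited macrophage, 3 of 8 T and natural killer cell, 2 of 9 neutrophil and 1 of 5 dendritic cell markers were lower at day 28, while 1 epithelial, 1 neutrophil and 1 of 8 alveolar macrophage markers were higher. Over all genes, 6.88% were lower and 4.75% higher. Of the lower markers, Ccr2, Ly6c, Retnlg, Ccr7, Cdh1, Lamp3 and Slc34a2 would not have passed the filter without the NM day 1 libraries. The part of these cell types in the 13 values was not tested. None of the 6 tested members differed between the days by this test, with adjusted p between 0.249 and 0.67.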

How the results depend on the processing

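Il1b and Il1r2 kept their calls against PBS in all 18 alternatives, and Il1rn at day 28 in all but the 3 left-out libraries named with it. Against 522 genes higher at day 1, a filter of 5 FPKM gave 324, and against 680 lower at day 28 than at day 1 it gave 408. Against 393 lower at day 28 than in PBS, the 6 libraries alone gave 230. Leaving out 1 library gave 154 to 368 higher and 120 to 426 lower at day 28, 181 to 658 higher and 55 to 721 lower at day 1, and 214 to 630 higher and 300 to 776 lower between the days. Signs turned for Il18 at day 28 (0.27 after quantile normalisation) and for Pycard at day 1 (0.0033 with median-of-ratios scaling, 0.14 with quantile normalisation); the cause was not tested. With a library left out, log2 fold changes that turned ran from -0.34 to 0.10 for Il18 at day 28 and -0.039 to 0.40 at day 1, -0.22 to 0.50 for Il1a at day 1, -0.74 to 0.28 for Il1b and -0.63 to 0.15 for Il1r2 between the days, -0.25 to 0.28 for Il10ra at day 28 and -0.14 to 0.35 at day 1, -0.14 to 0.092 for Il6st at day 1, -0.067 to 0.35 for Nlrp3 at day 28, -0.13 to 0.12 for Pycard at day 28 and -0.15 to 0.045 at day 1, and -0.32 to 0.022 for Tnfrsf1b at day 28. The pairing check was mixed: same-numbered libraries correlated at r from -0.104 to 0.196, over 0.1 in 3 of 9 pairs, and best with their own number in 4 of 9, replicate 0 in each comparison among them. In no comparison were all 3 pairs over 0.1, so the libraries were not treated as paired. With the replicate block 278 genes were higher and 348 lower at day 28, 481 and 347 at day 1, and 411 and 642 between the days. The Il18bp call at day 28 ended (limma adjusted p = 0.0759), and no other printed call of a member or pathway gene did. Calls of marker genes were not compared across the alternatives. Without counts, what depth limits for Il6 and Il10 cannot be given as an interval.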
